A study of Mus musculus with 6 samples.

Results

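The 30 genes described here serve glycolysis and the response of cells to low oxygen. They were taken by name, and each was matched to its Ensembl gene among the 55487 genes counted. All 30 passed the filter on low counts, which kept 15691 genes. RNA was sequenced from LSK cells, the fraction of mouse bone marrow without lineage markers and with c-KIT and SCA1 on the surface, which holds blood stem cells and multipotent progenitors. The groups were wild type (WT, 3 mice) and Brm-/- (BrmKO, 3 mice). Both carried the C56Bl/6 strain background, as the labels spell it, and the labels name no treatment. Brm is the older name of Smarca2, which encodes the BRM motor subunit of SWI/SNF nucleosome remodellers. The labels record neither the age of the mice nor how the allele was made, nor whether it was lost only in blood cells.

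Glycolysis splits glucose into pyruvate in a chain of cytosolic enzymes, and lactate dehydrogenase turns pyruvate into lactate. When oxygen is scarce, prolyl hydroxylases no longer mark HIF-1alpha for destruction by the VHL ubiquitin ligase, and the stabilised protein pairs with ARNT and switches on glucose transporters, glycolytic enzymes and genes of adaptation to hypoxia. Blood stem cells lie in a marrow niche that is poor in oxygen, and they are known to draw on glycolysis. HIF-1alpha itself is set mainly at the protein level, which RNA counts do not show.

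No gene of the 30 passed the test for a difference between BrmKO and WT. With edgeR's quasi-likelihood test, 0 of 30 passed an adjusted p of 0.05, against 22 of 15691 genes tested, or 0.14% (0.0829% higher and 0.0574% lower). At an unadjusted p under 0.05 the count was also 0 of 30, against 5.85% of all genes tested. DESeq2 and limma-voom passed 0 of the 30 too, with 0.956% and 0.134% of all genes past the threshold. The log2 fold changes, BrmKO over WT, ran from -0.26 for Slc2a3 to 0.25 for Ddit4. They were above 0 in 20 genes and below 0 in 10, with a median of 0.02, beside a median of -0.0054 over all genes tested. The median size of the change, without its sign, was 0.0756 among the 30 and 0.125 among all genes. The 95% interval of the difference lay within 1.5-fold in either direction for 28 of 30 genes, against 54.7% of all genes tested, and the exceptions were Ankrd37 and Ddit4. For all 12 enzymes from hexokinase to pyruvate kinase the interval lay within that range. A gene that misses the threshold is not thereby shown to be equal in the groups, so these intervals give the sizes of change that the data leave possible. The 30 genes were measured more precisely than most, with a median standard error of 0.107 beside 0.163 over all genes. Their median rank by level per exon length was at percentile 74. All genes tested were not matched to them in level, so these comparisons do not show them steadier than genes of like level.

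The libraries held 28.01 to 36.46 M reads in genes, and levels are given in CPM, the reads of a gene per M reads on scaled library sizes. Smarca2 measured 174, 213 and 150.1 CPM in WT and 26.9, 26.5 and 27.9 CPM in BrmKO, which gave a log2 fold change of -2.72 ± 0.13 (± SE, edgeR adjusted p = 2.97e-05), while its paralogue Smarca4 had 0.11 ± 0.13 (adjusted p = 0.999). The labels do not say which part of Smarca2 was removed. The count of 22 genes over the whole table turned on single libraries. Leaving out WT replicate 1 gave 7, WT replicate 2 gave 6, WT replicate 3 gave 36 and BrmKO replicate 1 gave 9. The markers of the sort were present in every library, with Kit at 849 to 1031 CPM, and Ly6a, which encodes SCA1, at 18.7 to 35.7 CPM. Reads that fell outside any gene took 8.41% of WT replicate 3 and 9.29% of BrmKO replicate 3, more than the 5.79% to 6.61% of the other 4 libraries.

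The DNA letters that HIF reads are short, and 7 promoters are printed as examples. They are those of Hif1a and the hydroxylase genes Egln1 and Egln3, of Pfkfb4 and Pgam1, which with Egln3 are the genes whose groups did not overlap, and of Pgk1 and Ldha, textbook HIF targets among the enzymes. RefSeq promoter windows, 250 bases before to 50 bases after each transcript start (GRCm38.p6), were found for 27 of the 30 genes, and not for Slc2a3, Ndrg1 and Bnip3l. The core of the hypoxia response element was searched as ACGTG or GCGTG on both strands. ACGTG on both strands at once makes CACGTG, which is also the E-box read by MYC and by the MAX partner MXI1, so those matches belong to both motifs. In the lines that follow, each stretch is upstream of a RefSeq transcript start and reads along the gene's strand, and capitals mark every match, written as CACGT or CACGC where it lies on the opposite strand.
Hif1a: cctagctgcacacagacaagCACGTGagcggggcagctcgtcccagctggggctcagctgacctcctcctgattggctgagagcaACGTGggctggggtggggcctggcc
Egln1: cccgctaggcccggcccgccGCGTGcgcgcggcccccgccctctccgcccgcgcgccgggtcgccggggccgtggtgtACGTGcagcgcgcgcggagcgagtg
Egln3: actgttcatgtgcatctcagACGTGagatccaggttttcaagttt
Pfkfb4: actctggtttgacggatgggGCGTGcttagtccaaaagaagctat
Pgam1: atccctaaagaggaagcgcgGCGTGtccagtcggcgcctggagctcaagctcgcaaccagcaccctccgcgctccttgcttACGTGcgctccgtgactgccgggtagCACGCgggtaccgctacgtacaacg
Pgk1: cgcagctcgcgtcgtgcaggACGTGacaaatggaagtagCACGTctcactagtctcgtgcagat
Ldha: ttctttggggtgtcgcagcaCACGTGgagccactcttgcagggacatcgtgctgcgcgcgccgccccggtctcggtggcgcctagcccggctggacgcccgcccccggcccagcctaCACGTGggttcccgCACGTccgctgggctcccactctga

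The Hif1a stretch is chr12:73907712-73907821 on the plus strand and the Egln1 stretch chr8:124949298-124949400 on the minus strand. Egln3 is shown at chr12:54204079-54204123 on the minus strand and Pfkfb4 at chr9:108991765-108991809 on the plus strand. The stretch of Pgam1 is chr19:41911676-41911807, that of Pgk1 chrX:106186930-106186993 and that of Ldha chr7:46845639-46845794, all on the plus strand. A RefSeq transcript start can differ from the outer bound of the gene in GENCODE: the stretches of Hif1a and Ldha lie inside that bound, and those of Egln1 and Pfkfb4 reach into it. Matches were counted on each strand, so a CACGTG adds a match for each strand at the same site. Counted in this way, Ldha held the most matches of the 7 shown, 5 before the start, followed by Hif1a and Pgam1 with 3 each. For Ldha and Hif1a these counts exceed the number of separate sites. The lead of Ldha and the tie of Hif1a with Pgam1 therefore hold for matches and not for separate sites. Hif1a and Ldha hold the CACGTG form in which both strands match. Over the 27 genes, 31 of 41 windows held a match (75.6%), beside 43.8% of all 32851 windows in the table. Counted by gene, 25 of 27 held a match in any window (92.6%), beside 46.7% of 27025 genes. Those 27025 genes include ones not expressed here and were not matched for base content. They also had fewer windows per gene than the 27, which lowers a share counted over any window. Gpi1 and Tpi1 held none in these windows. A match is a run of letters and no evidence that a factor was bound, and no binding was measured here.

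Hif1a encodes the oxygen-regulated subunit of HIF-1 and lies at chr12:73901375-73947530, plus strand (GRCm38). It measured 55.2, 57.4 and 46.6 CPM in WT and 47.2, 46.1 and 45.9 CPM in BrmKO. WT replicates 1 and 2 were higher than the other 4 libraries, and WT replicate 3 lay inside the BrmKO range, so the groups overlapped. The log2 fold change was -0.19 ± 0.11 (SE, n = 3 per group, edgeR unadjusted p = 0.0994, adjusted p = 0.928), with a 95% interval of -0.43 to 0.04. Egln1, at chr8:124908587-124949324, minus strand, encodes the main prolyl hydroxylase that marks HIF-1alpha for destruction. It measured 46.9, 56.03 and 47.5 CPM in WT and 68.8, 57.5 and 51.8 CPM in BrmKO. BrmKO replicate 1 was the highest of the 6, and BrmKO replicate 3 lay among the WT libraries. Its log2 fold change was 0.24 ± 0.13, with an unadjusted p of 0.0888 and an adjusted p of 0.913 from edgeR. Egln3, at chr12:54178981-54203860, minus strand, encodes a prolyl hydroxylase that is itself induced by HIF. It measured 34.9, 33.97 and 32.9 CPM in WT and 36.1, 35.8 and 36.7 CPM in BrmKO. Every BrmKO library was above every WT library, the nearest pair being BrmKO replicate 2 and WT replicate 1, and each group was narrow. The change of Egln3 was 0.09 ± 0.10 on the log2 scale, with an adjusted p of 0.999 from edgeR. Such a gap between the groups occurred in the higher direction for 5.69% of all genes tested and in the lower direction for 5.37%. Among the 30 genes it occurred for 2 in the higher direction, Egln3 and Pfkfb4, and for 1 in the lower direction, Pgam1. That is 3 of 30, beside 11.1% of all genes tested in either direction.

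Glucose enters through GLUT1 and GLUT3, encoded by Slc2a1 and Slc2a3. Slc2a1 measured 37.3, 32.9 and 35.2 CPM in WT and 35.5, 34.7 and 38.4 CPM in BrmKO, and the groups overlapped throughout. Slc2a3, at chr6:122727809-122801640, minus strand, measured 100.5, 129.9 and 96.4 CPM in WT and 103, 86.5 and 82.5 CPM in BrmKO. WT replicate 2 was the highest and BrmKO replicates 2 and 3 the lowest, with BrmKO replicate 1 above 2 of the WT libraries. The log2 fold change of Slc2a3 was -0.26 ± 0.13 with an interval of -0.56 to 0.04, and its unadjusted p of 0.0793 (edgeR adjusted p = 0.902) was the smallest of the 30 genes. Without WT replicate 2 the log2 fold change of Slc2a3 was -0.12. That of Slc2a1 was 0.04 ± 0.10, with an interval of -0.19 to 0.28. Per exon length the levels in WT were 10.02 ± 0.629 reads per kilobase of exon per M reads (RPKM) for Slc2a1 and 15.04 ± 2.52 RPKM for Slc2a3 (SD, n = 3), and in BrmKO they were 10.3 ± 0.557 and 12.5 ± 1.52 RPKM.

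Hexokinases trap glucose in the cell as glucose-6-phosphate. Hk1, the housekeeping form, measured 408, 450.1 and 334 CPM in WT and 444, 506 and 334 CPM in BrmKO. Both replicates numbered 3 were the lowest, and the spread inside each genotype was wider than the distance between the means. Hk2, the form that HIF induces, measured 28.7, 29.7 and 26.4 CPM in WT and 28.98, 33.8 and 28.4 CPM in BrmKO, with BrmKO replicate 2 the highest and all other libraries between 26.4 and 29.7 CPM. The log2 fold changes were 0.11 ± 0.16 for Hk1 and 0.11 ± 0.12 for Hk2. Per exon length Hk1 stood at 46.6 ± 6.86 RPKM and Hk2 at 4.73 ± 0.284 RPKM in WT.

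Phosphofructokinase commits the sugar to glycolysis. Pfkl, the liver form, measured 373, 384 and 319.6 CPM in WT and 410.4, 377 and 345 CPM in BrmKO. Pfkp, the platelet form, measured 117, 138 and 109 CPM in WT and 109.7, 137 and 104 CPM in BrmKO. Pfkm, the muscle form and no member of the list of 30, measured 77.8, 77.3 and 80.7 CPM in WT and 89.7, 92.7 and 71.6 CPM in BrmKO. In all 3 genes the groups overlapped, and for Pfkl and Pfkp the lowest library of each genotype was replicate 3. The log2 fold changes were 0.07 ± 0.10 for Pfkl, -0.06 ± 0.13 for Pfkp and 0.11 ± 0.11 for Pfkm. Aldoa encodes the aldolase that cleaves the sugar into trioses, and it measured 490.4, 492 and 443 CPM in WT and 441, 483 and 405 CPM in BrmKO. WT replicates 1 and 2 were the highest and BrmKO replicate 3 the lowest, with overlap between the groups. Its log2 fold change was -0.10 ± 0.10, with an interval of -0.32 to 0.11. For 2 further enzymes of these steps the groups overlapped too. Gpi1, which turns glucose-6-phosphate into fructose-6-phosphate, ran from 499 to 626 CPM in WT and from 537 to 591 CPM in BrmKO. Tpi1, which interconverts the trioses, ran from 498 to 570 CPM in WT and from 495 to 589 CPM in BrmKO. Their log2 fold changes were 0.02 ± 0.10 and 0.05 ± 0.10.

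PFKFB enzymes make and break fructose-2,6-bisphosphate, the activator of phosphofructokinase. Pfkfb4, at chr9:108991778-109032228, plus strand, measured 25.9, 22.1 and 25 CPM in WT and 30.1, 26.6 and 27.5 CPM in BrmKO. Every BrmKO library was above every WT library, the nearest pair being BrmKO replicate 2 and WT replicate 1. The log2 fold change was 0.20 ± 0.12, with an interval of -0.07 to 0.47 (edgeR unadjusted p = 0.122, adjusted p = 0.954). Pfkfb3, whose product favours synthesis of the activator, ran from 26.8 to 37.5 CPM in WT and from 25.5 to 35.4 CPM in BrmKO. Its log2 fold change was -0.06 ± 0.16, and replicate 3 was the lowest library in both genotypes.

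**Figure D1:**
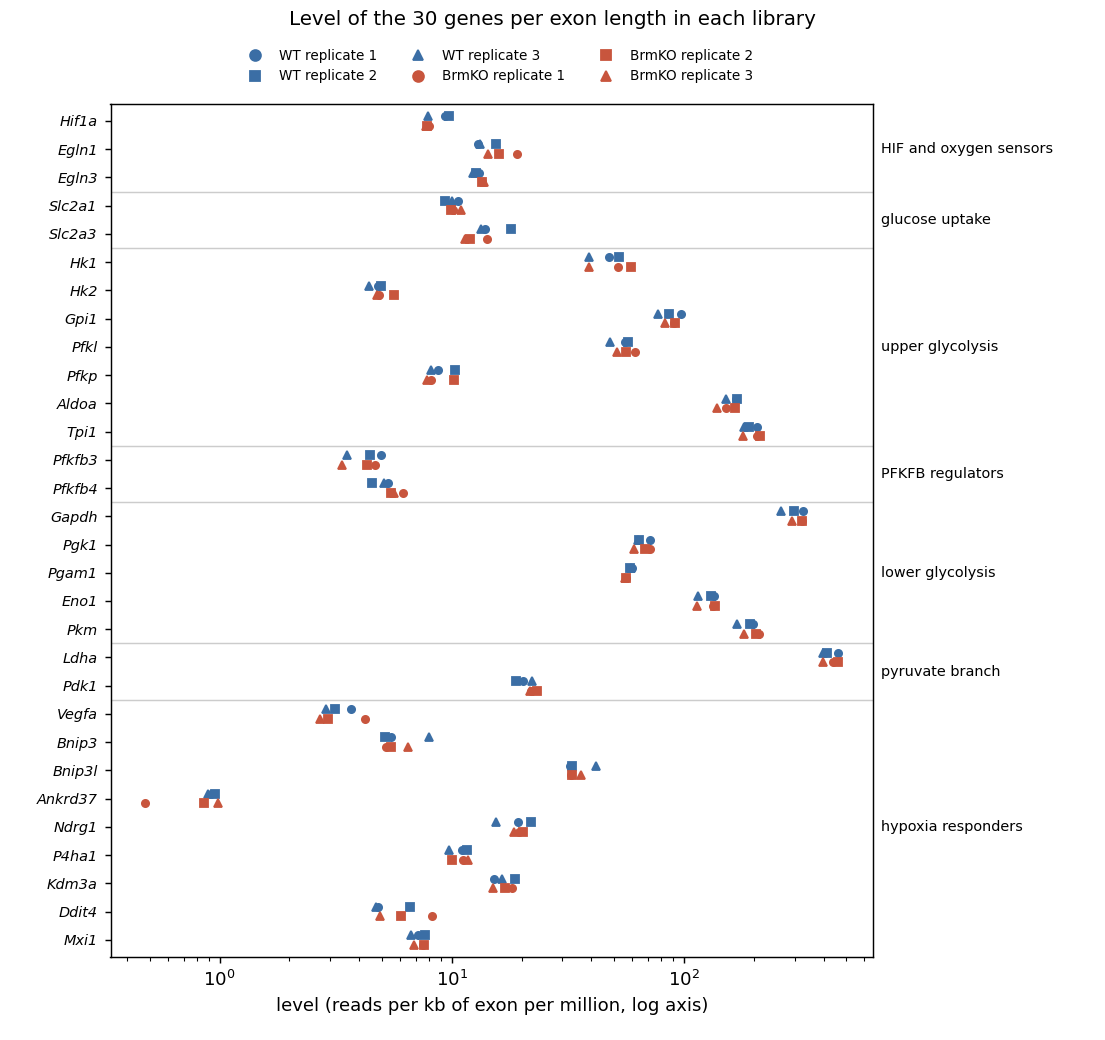
Level of each of the 30 genes in each library, in RPKM on a log axis, with WT in blue and BrmKO in red and a marker shape for each replicate number. The genes are grouped by role, Ldha reaches the highest level and Ankrd37 the lowest, and the blue and red points of a gene lie close together beside the distance between genes.

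The later steps of the pathway yield ATP and pyruvate. Gapdh, the dehydrogenase that opens it, measured 1351, 1238 and 1080.0 CPM in WT and 1341, 1331 and 1203 CPM in BrmKO. Pgk1, the kinase that makes the first ATP, measured 161, 144 and 142 CPM in WT and 161, 153 and 137 CPM in BrmKO. Eno1, the enolase, measured 726, 706 and 616 CPM in WT and 716, 736 and 611 CPM in BrmKO. In these 3 genes the groups overlapped and both replicates numbered 3 were the lowest of their genotype. The log2 fold changes were 0.08 ± 0.10 for Gapdh, 0.01 ± 0.09 for Pgk1 and 0.01 ± 0.11 for Eno1, and the intervals in fold ran over 0.898 to 1.24, 0.869 to 1.17 and 0.856 to 1.19. Pkm, the pyruvate kinase, measured 991, 967 and 851 CPM in WT and 1056, 1023 and 907 CPM in BrmKO. BrmKO replicates 1 and 2 were above the WT range, BrmKO replicate 3 was inside it, and the log2 fold change of Pkm was 0.09 ± 0.10. Pgam1, at chr19:41911923-41918660, plus strand, encodes the phosphoglycerate mutase. It measured 118, 116 and 117 CPM in WT and 111, 112 and 111 CPM in BrmKO. All 3 BrmKO libraries lay below all 3 WT libraries and each group was narrow. The difference itself was small, a log2 fold change of -0.07 ± 0.08 (edgeR adjusted p = 0.999). Pgam1 lies on chromosome 19, as do Mxi1 and Smarca2 itself.

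At the pyruvate branch, Ldha makes lactate and Pdk1 blocks the conversion of pyruvate to acetyl-CoA in mitochondria by phosphorylating pyruvate dehydrogenase. Ldha measured 1533, 1377 and 1317 CPM in WT and 1451, 1531 and 1311 CPM in BrmKO. The groups overlapped, and replicate 3 was the lowest library in both. Its log2 fold change was 0.02 ± 0.10, an interval of 0.871 to 1.18 in fold. Pdk1 measured 158, 147 and 173 CPM in WT and 171, 182 and 169 CPM in BrmKO. WT replicate 2 and WT replicate 1 were the lowest of the 6, WT replicate 3 was among the BrmKO libraries, and the groups overlapped. The log2 fold change of Pdk1 was 0.13 ± 0.09, with an unadjusted p of 0.188 and an adjusted p of 0.995 from edgeR.

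The order of levels per exon length put these enzymes among the most abundant transcripts of LSK cells. Ldha was highest at 426 ± 33.7 RPKM in WT, rank 39 of 15675 genes with a known length. Gapdh followed at 296 ± 32.9 RPKM, then Tpi1 at 193 ± 13.1, Pkm at 187 ± 14.99, Aldoa at 163 ± 9.49 and Eno1 at 127 ± 10.8. The WT libraries of Tpi1 and Pkm overlapped, while every other pair of neighbours in this order down to Eno1 stood apart. The next were Gpi1 at 87.02 ± 9.84, Pgk1 at 66.5 ± 4.597, Pgam1 at 59.2 ± 0.459, Pfkl at 53.8 ± 5.16 and Hk1 at 46.6 ± 6.86 RPKM, of which Pfkl and Hk1 overlapped. Below them the neighbours mostly overlapped, from Bnip3l at 35.7 ± 5.31 and Pdk1 at 20.5 ± 1.68 RPKM, which stood apart, through Hif1a at 9.002 ± 0.977 to Vegfa at 3.23 ± 0.398 and Ankrd37 at 0.922 ± 0.0348 RPKM. In all, 11 of the 30 genes, among them 10 of the 12 enzymes, were in the top 10% of genes. The enzymes outside it were Hk2 and Pfkp, at 4.73 ± 0.284 and 9.08 ± 1.11 RPKM. The length used is the union of all annotated exons, which lowers the value of a gene with long rare isoforms. By the longest transcript Ldha was again highest of the 30, at 776 RPKM in WT, but the next were Pkm at 385, Gapdh at 372, Eno1 at 337, Tpi1 at 330.3 and Aldoa at 307 RPKM. Summed over the 30 genes, the level was 7362 to 8498 CPM in WT and 7524 to 8635 CPM in BrmKO.

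The hypoxia responders are genes that HIF is known to induce outside glycolysis. Vegfa, the growth factor for blood vessels, measured 15.7, 13.4 and 12.4 CPM in WT and 18.1, 12.6 and 11.6 CPM in BrmKO. BrmKO replicate 1 was the highest, the other BrmKO libraries were among or below the WT libraries, and the log2 fold change was 0.02 ± 0.20. Ddit4, an inhibitor of mTORC1 signalling, measured 8.42, 11.6 and 8.26 CPM in WT and 14.5, 10.7 and 8.58 CPM in BrmKO. BrmKO replicate 1 was again the highest, and both replicates numbered 3 were the lowest of their genotype. Its log2 fold change of 0.25 ± 0.23 had an interval of -0.27 to 0.78, too wide to bound the difference at 1.5-fold, and without BrmKO replicate 1 it was 0.03. It ran up to 0.43 without WT replicate 2. Bnip3 and Bnip3l, receptors for the removal of mitochondria, measured 12.4, 11.7 and 18 CPM in WT and 11.8, 12.4 and 14.6 CPM in BrmKO for Bnip3 and 125, 127 and 161 CPM in WT and 126, 127 and 139 CPM in BrmKO for Bnip3l. In each of them replicate 3 was the highest library of both genotypes. The log2 fold changes were -0.11 ± 0.20 and -0.08 ± 0.11.

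Ndrg1, a stress-induced cytoplasmic protein, ran from 103 to 145 CPM in WT and from 123 to 134 CPM in BrmKO. P4ha1, a collagen prolyl hydroxylase subunit, ran from 40.2 to 47.8 CPM in WT and from 41.4 to 48.2 CPM in BrmKO. In both genes the WT libraries spread as widely as the groups together, or nearly so. Kdm3a, a histone H3 lysine demethylase, ran from 125 to 155 CPM in WT and from 125 to 149 CPM in BrmKO. Mxi1, an antagonist of MYC at shared sites, ran from 45.4 to 52.2 CPM in WT and from 47.1 to 51.6 CPM in BrmKO. All 4 genes overlapped between the groups, and their log2 fold changes were 0.04 ± 0.12, 0.02 ± 0.11, -0.01 ± 0.11 and 0.04 ± 0.10 in that order. Ankrd37, a small ankyrin-repeat gene induced by hypoxia, was the least abundant at 1.41, 1.48 and 1.37 CPM in WT and 0.736, 1.32 and 1.51 CPM in BrmKO. It rested on 250 reads in all libraries together, and its log2 fold change of -0.25 ± 0.40 had an interval of -1.14 to 0.64. BrmKO replicate 1 was the lowest, and the other 5 libraries lay between 1.32 and 1.51 CPM. Without it the log2 fold change was 0.0038.

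**Figure D2:**
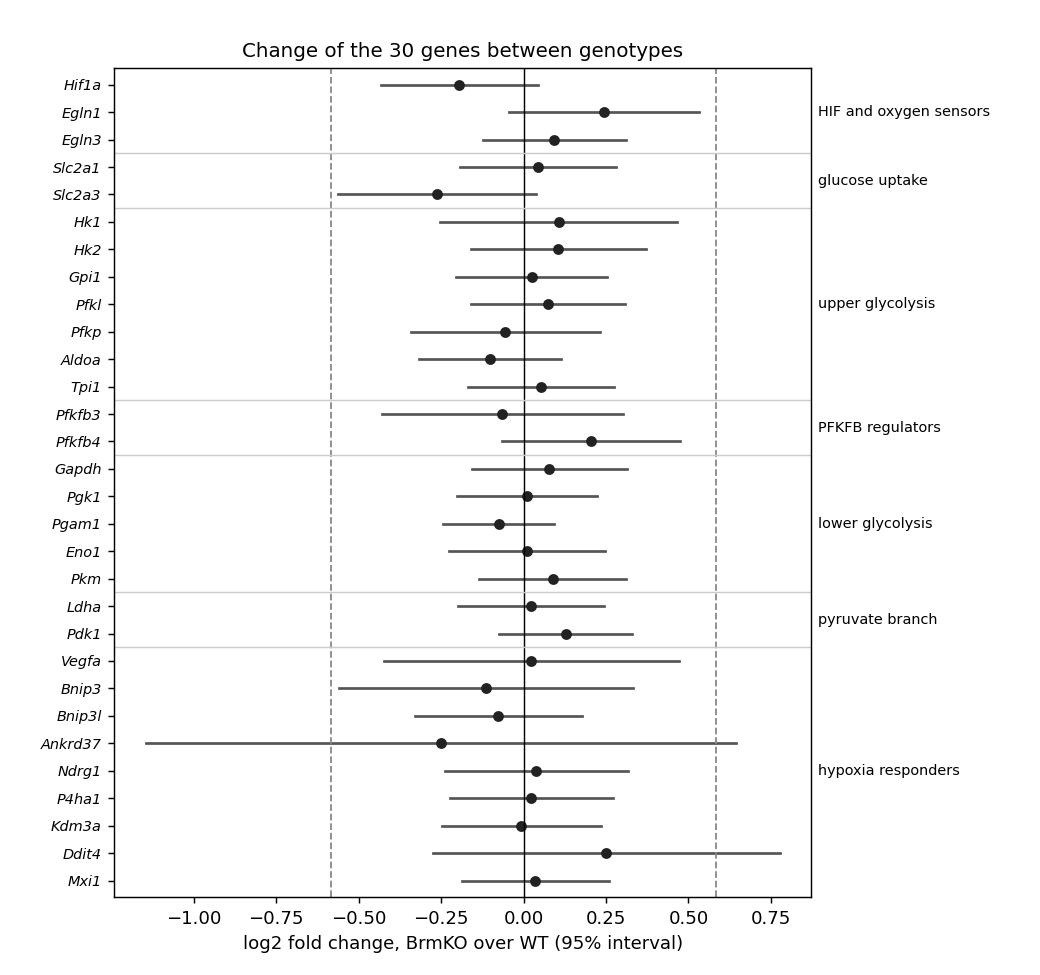
Log2 fold change of each of the 30 genes, BrmKO over WT, as a point with its 95% interval from edgeR, ordered by role. Dashed lines mark a change of 1.5-fold in either direction, and the intervals of Ankrd37 and Ddit4 alone reach past them.

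Enzymes that come as isoforms were also compared as shares per exon length, since a switch of isoform can leave the sum unmoved. Slc2a1 made up 43.4%, 34.4% and 43.0% of Slc2a1 and Slc2a3 together in WT and 41.5%, 45.3% and 49.0% in BrmKO. WT replicate 2 was the lowest library and the groups overlapped, with means of 40.3% ± 5.10 and 45.3% ± 3.75 (SD, n = 3, exact permutation p = 0.3, two-sided). Aldoa made up 98.7%, 98.5% and 97.8% of Aldoa and Aldoc in WT and 97.6%, 97.7% and 97.4% in BrmKO. Every BrmKO library was below every WT library, a mean difference of -0.758 points (exact permutation p = 0.1, two-sided). With 3 libraries against 3, 0.1 is the smallest p this test can give. Over the 6 shares compared, the adjusted p ran from 0.36 to 0.5. Hk2 held 3.68% ± 0.320 of the 3 hexokinases in WT and 4.26% ± 0.652 in BrmKO. Pfkl held 62.2% ± 2.14 of the 3 phosphofructokinases in WT and 62.5% ± 2.32 in BrmKO. The liver form thus kept the larger part in both genotypes. Ldha held 93.1% ± 1.35 of Ldha and Ldhb in WT and 92.2% ± 0.541 in BrmKO. Pdk1 held 26.2% ± 1.91 of the 4 pyruvate dehydrogenase kinases in WT and 28.1% ± 0.901 in BrmKO. In these 4 shares the groups overlapped.

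By union exon length most of the hexokinase message was Hk3, a form typical of myeloid cells. By the longest transcript Hk1 stood at 92.9 and Hk3 at 89.6 RPKM in WT, so which of them led depended on the length used. By union length the share of Hk3 ran 61.5%, 59.6% and 60.0% in WT and 56.2%, 53.6% and 54.1% in BrmKO, and the groups did not overlap. The share of Hk1 ran 34.9%, 36.9% and 35.9% in WT and 40.1%, 42.4% and 40.9% in BrmKO, also without overlap. Among the pyruvate dehydrogenase kinases the share of Pdk3 ran 58.2%, 57.6% and 55.7% in WT and 54.9%, 53.5% and 54.4% in BrmKO, without overlap too. These 3 shares were singled out after their values were seen, so they carry no test. As single genes, Hk3 had a log2 fold change of -0.23 ± 0.16 (edgeR adjusted p = 0.981) and Hk1 one of 0.11 ± 0.16 (adjusted p = 0.999), and both overlapped between the groups.

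**Figure D3:**
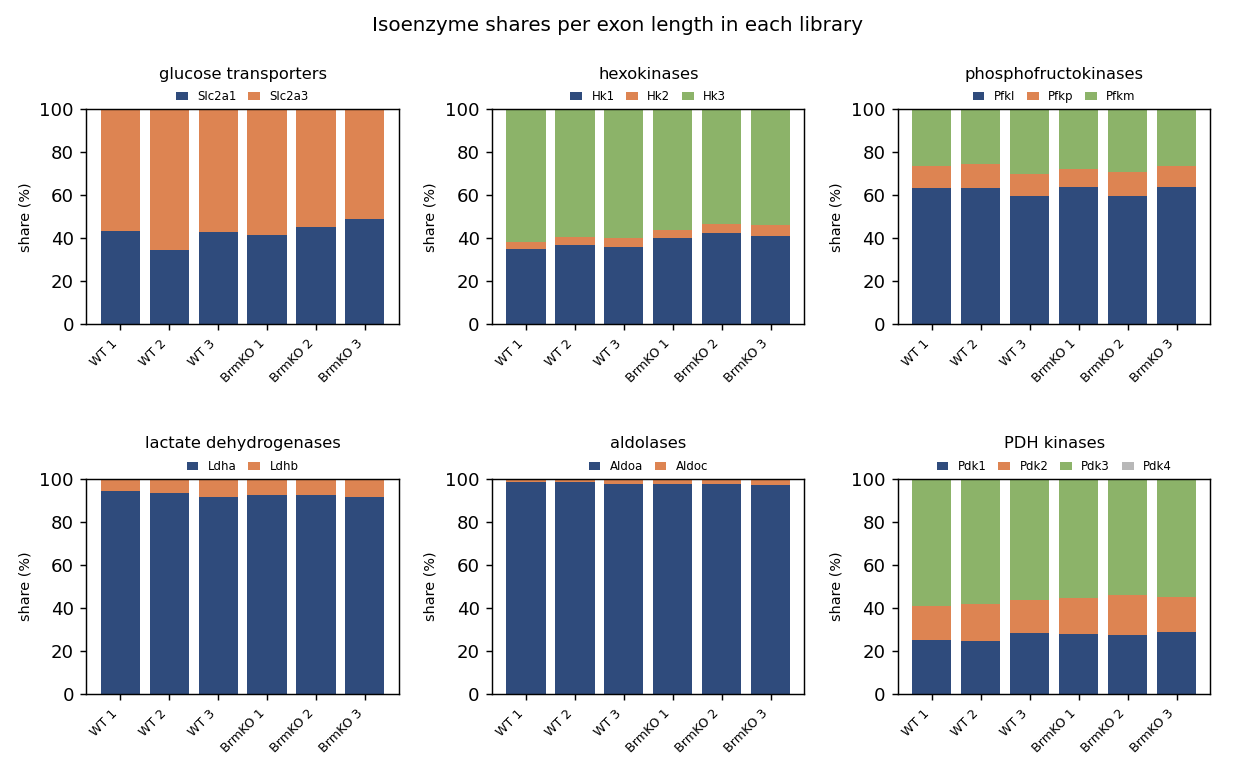
Share of each isoform, per exon length, in the summed level of the isoforms compared in each of the 6 libraries, as stacked bars from 0 to 100%. Ldha and Aldoa fill nearly the whole of their bars, and Hk3 takes 53.6% to 61.5% of the hexokinases by union exon length. The glucose transporter bars hold Slc2a1 and Slc2a3 only, without others such as Slc2a6 and Slc2a8.

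The libraries varied along a line that was not genotype. Of the 30 genes, 19 were lowest in replicate 3 of both genotypes, or 63.3%, against 22.1% of all genes tested. Among the 12 enzymes it was 11, the exception being Pgam1. Only Bnip3 and Bnip3l were highest in replicate 3 of both, against 23.4% of all genes. Taken as the mean deviation of log2(CPM + 1) from each gene's mean over the 6 libraries, the 12 enzymes stood at 0.06, 0.04 and -0.14 in WT and at 0.05, 0.11 and -0.12 in BrmKO. The 2 libraries numbered 3 were the low ones, and the groups otherwise coincided. Immediate early genes, which are induced within minutes of handling cells, stood at -0.08, 0.41 and -0.91 in WT and at 0.60, 0.33 and -0.35 in BrmKO on the same scale. Heat shock genes stood at -0.25, 0.03 and 0.52 in WT and at -0.31, -0.08 and 0.10 in BrmKO, so replicate 3 was the highest of each genotype. The share of reads outside genes was highest in the same 2 libraries, as given above. Among markers of other marrow cells, those of neutrophils stood at -0.09, -0.48 and 0.67 in WT and at -0.23, -0.27 and 0.41 in BrmKO. Erythroid markers stood at -0.07, -0.29 and 0.48 in WT and at -0.35, 0.02 and 0.22 in BrmKO. Replicate 3 was thus highest of each genotype for both lists, though not for Mpo or Gata1 within them. No other list of such markers was highest in replicate 3 of both genotypes. The part of handling, RNA quality or cell content in the enzyme levels was not tested. Without replicate 3 of both genotypes, 0 of the 30 genes passed, and 2 had an unadjusted p under 0.05. These were Hif1a, with a log2 fold change of -0.27 (edgeR adjusted p = 0.402), and Pdk1, with 0.21 (edgeR adjusted p = 0.409).

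**Figure D4:**
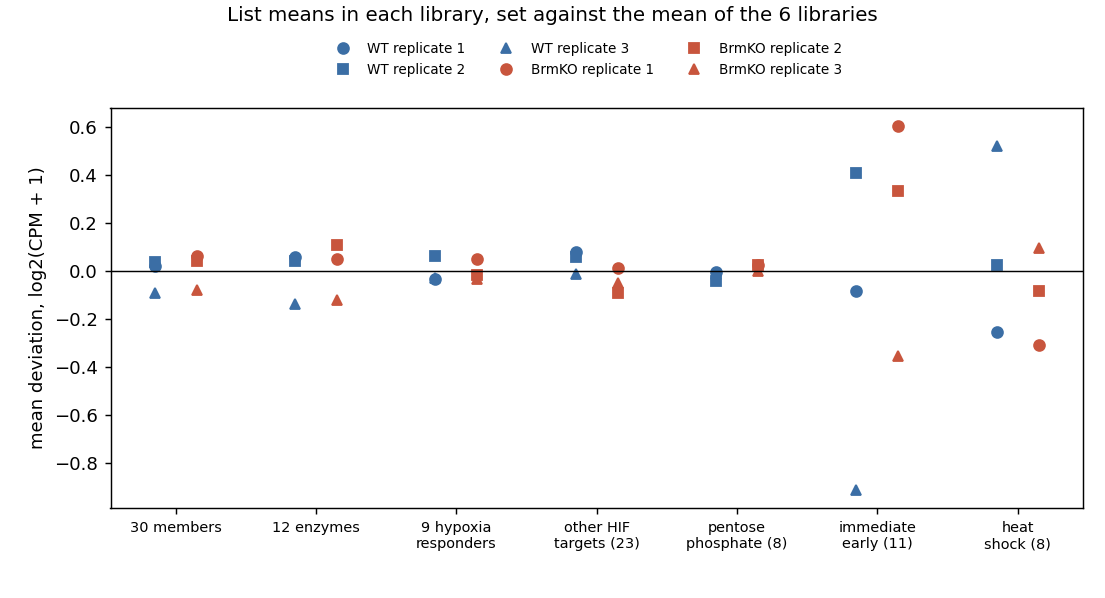
Mean deviation of log2(CPM + 1) from the mean of the 6 libraries for 7 gene lists, a point for each library, WT in blue and BrmKO in red. The triangles of replicate 3 lie lowest for the 12 enzymes in both genotypes, at -0.14 and -0.12, lowest for the immediate early genes and highest for the heat shock genes.

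The other genes of these pathways were gathered in 6 lists of 103 genes, of which 90 were tested, and 0 of 90 passed with edgeR. At an unadjusted p under 0.05 there were 9, of which 4 were higher and 5 lower, again beside 5.85% of all genes. DESeq2 passed 2 of the 90, Slc2a8 and Ak4, and limma-voom 0. The median log2 fold change of the 90 was -0.0085.

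Among the other isoforms of glycolysis, 17 of 22 were tested and 3 had an unadjusted p under 0.05. Slc2a8, which encodes the intracellular glucose transporter GLUT8, measured 18.6, 19.1 and 15.6 CPM in WT and 25.2, 32.2 and 26.3 CPM in BrmKO. All 3 BrmKO libraries were above all 3 WT libraries, with a log2 fold change of 0.65 ± 0.15 (edgeR adjusted p = 0.238, DESeq2 adjusted p = 0.00947). Aldoc, an aldolase of brain, measured 7.12, 8.31 and 11.01 CPM in WT and 11.97, 12.5 and 12.1 CPM in BrmKO, with WT replicate 3 nearest to the BrmKO libraries and a log2 fold change of 0.47 ± 0.19 (edgeR adjusted p = 0.802).

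Of 15 genes of pyruvate entry and lactate transport, all were tested and 3 had an unadjusted p under 0.05. The lactate carriers pointed in opposite directions. Slc16a1, which encodes MCT1, measured 165, 154 and 179.7 CPM in WT and 123, 151 and 135 CPM in BrmKO, which gave a log2 fold change of -0.28 ± 0.10 (edgeR adjusted p = 0.72). Slc16a3, which encodes MCT4, a known HIF target, measured 8.75, 6.98 and 7.98 CPM in WT and 14.5, 8.95 and 10.2 CPM in BrmKO, which gave a log2 fold change of 0.50 ± 0.22 (adjusted p = 0.828). Without BrmKO replicate 1, the highest library, that of Slc16a3 was 0.28. Neither gene overlapped between the groups, and neither passed. Pdp1, the phosphatase that counters the PDK enzymes, measured 30.5, 36.7 and 32.5 CPM in WT and 28.8, 25.8 and 24.9 CPM in BrmKO, with all BrmKO libraries below all WT libraries and a log2 fold change of -0.33 ± 0.12 (edgeR adjusted p = 0.746).

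Of the HIF machinery, 15 of 16 genes were tested and Hif3a alone had an unadjusted p under 0.05. Hif3a, an alternative alpha subunit, measured 5.69, 8.98 and 10.3 CPM in WT and 3.31, 4.18 and 6.75 CPM in BrmKO, with a log2 fold change of -0.81 ± 0.32 (edgeR adjusted p = 0.79). Cul2, the scaffold of the VHL ligase, had a log2 fold change of -0.23 ± 0.11. Epas1, which encodes HIF-2alpha, measured 2.04, 1.26 and 0.352 CPM in WT and 0.702, 0.244 and 0.378 CPM in BrmKO. WT replicates 1 and 2 were above the other 4 libraries, WT replicate 3 was among the BrmKO libraries, and the log2 fold change was -1.47 ± 0.68 (edgeR adjusted p = 0.864). Without WT replicate 1 that of Epas1 was -0.87.

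Among 30 further HIF targets, 23 were tested, 17 lay below 0 and 6 above, with a median of -0.08, and 2 had an unadjusted p under 0.05. Ak4, a mitochondrial adenylate kinase, measured 27.1, 26.8 and 24.5 CPM in WT and 38.1, 32.5 and 36.6 CPM in BrmKO. All 3 BrmKO libraries were above all 3 WT libraries, and the log2 fold change was 0.45 ± 0.11 (edgeR adjusted p = 0.328, DESeq2 adjusted p = 0.0428). Hmox1, the haem oxygenase, measured 26.3, 12.4 and 8.93 CPM in WT and 8.32, 6.13 and 7.997 CPM in BrmKO, the highest library being WT replicate 1, with a log2 fold change of -1.09 ± 0.36 (edgeR adjusted p = 0.644). Without that library the log2 fold change of Hmox1 was -0.51. Higd1a, a mitochondrial protein of hypoxia, had -0.27 ± 0.14, and -0.16 without WT replicate 3. Epo was at 0 reads in every library, which allows up to 0.0823 to 0.107 CPM depending on depth, for counting error only.

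The 8 pentose phosphate genes, whose enzymes draw glucose-6-phosphate off to make NADPH and ribose, were all tested and none had an unadjusted p under 0.05. Their 3 smallest p-values belonged to H6pd at 0.14 ± 0.09, Tkt at 0.09 ± 0.10 and Rpe at -0.06 ± 0.11. Of 12 regulators of glycolysis none had an unadjusted p under 0.05 either. Myc, a driver of glycolytic transcription, measured 654, 678 and 669 CPM in WT and 732, 781 and 679 CPM in BrmKO, which gave a log2 fold change of 0.13 ± 0.09. Every BrmKO library was above every WT library, the nearest pair being BrmKO replicate 3 and WT replicate 2. Mycn had -0.20 ± 0.11 and Prkaa2, a catalytic subunit of AMPK, -0.72 ± 0.41, which was -0.43 without BrmKO replicate 2.

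Of the handling genes set beside the enzymes, 0 of 11 immediate early and 0 of 8 heat shock genes passed with edgeR. At an unadjusted p under 0.05 there were 4 and 2 of them, beside 5.85% of all genes tested. Of the immediate early genes 8 lay above 0 and 3 below, and all 8 heat shock genes lay below 0. DESeq2 passed 1 of each list, Klf4 and Hsph1, beside 0.956% of all genes tested, and limma-voom 0. Klf4, an immediate early transcription factor, measured 10.5, 17.5 and 9.11 CPM in WT and 38.9, 40 and 20.97 CPM in BrmKO. Every BrmKO library was above every WT library, and the log2 fold change was 1.43 ± 0.30 (edgeR adjusted p = 0.194, DESeq2 adjusted p = 0.000184). Dusp1 stood at 0.59 ± 0.18 on the log2 scale (edgeR adjusted p = 0.59) and Fos at 0.67 ± 0.23 (adjusted p = 0.706). Of the heat shock genes, Hsph1 had -0.39 ± 0.10 (edgeR adjusted p = 0.327, DESeq2 adjusted p = 0.0243), Hspa8 -0.40 ± 0.15 and Hsp90aa1 -0.13 ± 0.11.

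Markers of other marrow cells were summed in each library. LSK cells may express some of these genes themselves, so the sums do not measure what else the sort held. The summed level of 10 platelet and megakaryocyte markers was 785 to 1080.4 CPM in WT and 513 to 743 CPM in BrmKO, without overlap. All 10 lay below 0, with a median log2 fold change of -0.58. The most abundant of them, Itga2b, ran from 340 to 569 CPM in WT and from 258 to 414 CPM in BrmKO, with overlap. Pf4, Itgb3, Treml1 and Selp were lower in BrmKO without overlap. These 4 alone had an unadjusted p under 0.05 with edgeR, beside 5.85% of all genes tested. DESeq2 passed the same 4, beside 0.956% of all genes. Only Pf4 passed with edgeR, at -0.60 ± 0.09 on the log2 scale (edgeR adjusted p = 0.0391), and only Pf4 with limma-voom. The summed level of 8 stromal and endothelial markers was 189 to 365 CPM in WT and 186 to 237 CPM in BrmKO, highest in WT replicate 1. The most abundant of the 8, Pecam1, had a log2 fold change of -0.01 ± 0.09, while 7 of the 8 lay below 0 with a median of -1.78. Pdgfra, Lepr, Kdr and Plvap were lower in BrmKO without overlap, Pdgfra with 27, 19 and 21 reads in WT and 0 in each BrmKO library. None of the 8 passed with edgeR, 4 had an unadjusted p under 0.05, DESeq2 passed 3 and limma-voom passed Pdgfra. Monocyte and macrophage markers summed to 480 to 594 CPM in WT and 432 to 501 CPM in BrmKO, and of these 6 Ccr2 (-0.63 ± 0.16) and Vcam1 (-2.38 ± 0.92) were lower without overlap. The 6 B lineage markers summed to 691 to 1363 CPM in WT and 618 to 694 CPM in BrmKO, also highest in WT replicate 1. Most of that sum was Ighm, at 628 to 1291 CPM in WT and 556 to 623 CPM in BrmKO. Of 5 T and NK cell markers, Cd3e was at 0 reads in all libraries and Cd3g had 10, 0 and 5 reads in WT and 1, 3 and 3 in BrmKO. Ncr1 had 8, 7 and 6 reads in WT and 18, 28 and 51 in BrmKO, without overlap (log2 fold change 2.22 ± 0.55, edgeR adjusted p = 0.327), while Il2rb and Nkg7 overlapped. The part of these cells in the levels of the 30 genes was not tested. In RNA from whole sorted populations, fewer cells of a type and less RNA per cell cannot be told apart. Nor can reads from LSK cells be told apart from those of other cells.

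Several of these genes have near-identical copies elsewhere in the genome, and reads that fit a gene and its copy equally well were dropped by the counting, so the levels of such genes are uncertain. A search with the longest transcript of each gene found 9 copies for 5 of the 30: Eno1, Pkm, Pgk1, Ldha and Bnip3. The reads counted on copies were at most 0.883% of the reads of the gene, for Eno1. A search with every transcript, added after the data were seen, found 121 copies for 11 genes, 98 of them for Gapdh. Those of Gapdh held 1.47% of its reads and those of Bnip3 1.05%. The library kit does not mark the strand, so reads of Gapdh and Iffo1, Tpi1 and Spsb2, Pfkp and Pitrm1, Hk1 and Hk1os, and Ankrd37 and Ufsp2 cannot be told apart where these pairs overlap.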

How the data were processed

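RNA of 3 WT and 3 BrmKO mice was counted. Each library's deposited file gives unnormalised counts of reads per gene, from STAR and HTSeq on GRCm38 per the submitters' processing notes, which also list bcl2fastq, FastQC and DESeq2. Versions, annotation release and strand setting: not given in the sources used here. Rows that name no gene stayed out of library sizes; reads outside genes were 5.79% to 9.29%. Symbols, positions and exon lengths came from GENCODE M21 by Ensembl ID. BrmKO was compared with WT by edgeR 4.0.16 (R 4.3.3; quasi-likelihood, TMM, filterByExpr, robust, no covariate), with Benjamini-Hochberg adjustment over 15691 genes. CPM use TMM-scaled sizes. Alternatives were DESeq2 1.42.0, limma-voom 3.58.1, RLE factors, no filter, a replicate block, summed copies (minimap2 2.31, 95% identity over 50% of the transcript) and libraries left out. The tests were tried on simulated counts. Values in every library were given for the 10 members with the smallest p and for preset enzymes, transporters, Hif1a and Vegfa, and up to 3 genes per other list were named by p; the result of a gene that this rule names is not reported here. Members and lists were chosen with earlier results of these data known.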

Additional observations from a re-analysis of the deposited data

How the results depend on the processing

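None of the 30 genes passed under any alternative tried, and the smallest adjusted p of a member was 0.402 (Hif1a, without replicate 3 of both genotypes). Of 420 log2 fold changes, 1 per member and alternative, 381 kept their sign and 39 reversed. The reversals fell on 18 members, and 31 of them came from leaving out 1 library; 12 members never reversed. The cause was not tested. No sign changed with RLE factors. The count over all genes was 150 with DESeq2, 58 without the filter, and 6 to 36 when 1 library was left out. Members at an unadjusted p under 0.05 numbered 1 without the filter (Slc2a3), 2 without replicate 3 of both genotypes, and 0 to 2 when 1 library was left out (Hif1a, Slc2a3 and Egln1 in turn). The median of the members ran from -0.02 to 0.08 when 1 library was left out. With limma-voom Vegfa was at -0.013. Without replicate 3 of both genotypes Slc2a1 was at -0.00069, Gpi1 at -0.011, Bnip3 at 0.0090, Bnip3l at 0.0076, Ndrg1 at -0.052, P4ha1 at -0.092 and Kdm3a at 0.045. Leaving out 1 library gave, on the log2 scale, Ankrd37 -0.46 to 0.0038, Bnip3 -0.23 to 0.10, Bnip3l -0.14 to 0.052, Eno1 -0.058 to 0.089, Gapdh -0.0043 to 0.16, Gpi1 -0.055 to 0.11, Hk1 -0.032 to 0.26, Kdm3a -0.075 to 0.083, Ldha -0.030 to 0.087 and Mxi1 -0.014 to 0.089. It also gave Ndrg1 -0.085 to 0.16, P4ha1 -0.045 to 0.083, Pfkfb3 -0.19 to 0.062, Pfkl -0.0040 to 0.13, Pfkp -0.18 to 0.049, Pgk1 -0.038 to 0.070, Slc2a1 -0.0023 to 0.089, Vegfa -0.19 to 0.15 and, outside the members, Rpe -0.15 to 0.0081. With the replicate number as a block, 25 genes passed and 0 members, with a median of 0.03; outside the members the block moved Klf4 past the threshold (edgeR adjusted p = 0.0269). Deviations of log2(CPM + 1) from the genotype mean correlated at 0.13, 0.06 and 0.33 between same-numbered libraries. Those of WT replicate 2 correlated best with those of BrmKO replicate 1 (0.27), so the number was not taken as a pairing.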
